A study of Mus musculus with 24 samples.

Results

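The distal end of the maxilla, the upper jaw, was compared with its proximal end in mouse embryos that lacked Alk5. The arrays were chosen by their titles: 4 of the distal and 4 of the proximal end of knockout maxilla, which are 8 of the 24 arrays of the series. The other 16 arrays hold 4 control maxilla arrays, 2 for each end, 8 knockout mandible arrays, 4 for each end, and 4 control mandible arrays. All embryos were of strain C57B6 and of embryonic day 12.5. They came from matings of Wnt1cre;Alk5fl/+ with Alk5fl/fl mice, so that control littermates can carry floxed Alk5 alleles too, with or without the Cre; the labels call them controls and name no allele. A cleft palate and a skull vault defect served to recognise mutants. The labels do not say which arrays share an embryo, whether embryos were pooled, or whether replicates were separate embryos, and p-values then measure only the spread between these samples. Expression was measured on Affymetrix Mouse430_2 arrays as log2 RMA values, and all differences are distal minus proximal on that log2 scale.

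Alk5 is a type I receptor of the TGF-beta family and is encoded by Tgfbr1. Wnt1-Cre recombines in the neural crest, whose cells form most of the mesenchyme of the face, whereas the surface epithelium, the myoblasts and the vessel lining have other origins and keep the gene. In the textbook plan of the upper jaw, the distal end lies toward the snout and the nasal field and the proximal end toward the jaw hinge. Homeobox genes such as Dlx1, Dlx2, Lhx6, Lhx8 and Barx1 mark oral and proximal jaw mesenchyme, and Alx1 and Pax7 mark frontonasal and lateral nasal mesenchyme.

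The arrays numbered 1 and 2 differed as a set from those numbered 3 and 4. Their hybridisation controls measured 11.07 to 12.01 against 8.81 to 9.25, and the excess of 3' over 5' signal in the control probe sets for Gapdh and beta-actin, a sign of RNA quality, measured 0.705 to 1.50 against 0.0009 to 0.155. Each end had 2 arrays in each set, and the 3' excess was 0.563 ± 0.701 (SD, n = 4) in distal and 0.515 ± 0.528 (SD, n = 4) in proximal arrays. Array set was therefore a block in the comparison. Several markers of facial mesenchyme were high on all 8 arrays: Prrx1 measured 11.69 to 13.46, Twist1 11.95 to 12.60, Pdgfra 11.21 to 12.63 and Col3a1 12.82 to 13.81. Dlx1 and Dlx2, markers of the same tissue, were not: they fell to 5.98 and 8.07 in their lowest distal arrays. Tgfbr1 itself measured 12.39, 12.64, 12.45 and 12.40 in distal arrays 1 to 4 and 12.40, 12.35, 12.52 and 12.33 in proximal arrays 1 to 4, a difference of 0.07 ± 0.09 (SE). Where its probes lie relative to the deleted part of the gene is not given in the sources used here, so this value checks no label. In control maxilla, the end difference of the arrays numbered 2 ran against that of those numbered 1 for many end genes. The numbers are not known to pair these arrays, and results that rest on the control arrays are given for each number.

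Between the ends, 6 of 13837 genes passed an adjusted p of 0.05 (limma with Benjamini-Hochberg adjustment over all genes), which is 0.0434% of the genes tested. The distal end was higher for 3 of them, Gdnf, Aqp3 and S100a4 (0.0217%), and lower for 3, Sim2, Barx1 and Mab21l1 (0.0217%). The 3 lower genes are transcription factors or developmental regulators of facial and oral mesenchyme and fell by 1.55 to 3.94, whereas the 3 higher genes rose by 0.96 to 1.36. At an unadjusted p under 0.05, 779 genes (5.63%) passed, close to the share that a threshold of 0.05 gives by itself. The count of 6 depends on how the spread is estimated: it was 0 with the replicate number as a block and 65 with the spread of all 16 knockout arrays, and it ran from 0 to 15 when 1 array was left out. The direction of the 6 genes was the same in all 24 alternative settings. Those settings reuse the same arrays, in which all 6 genes were separated the same way within both array sets. The unchanged direction is therefore no separate support.

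Of the 3 genes that fell, Sim2 and Barx1 had the larger differences. Sim2, a bHLH-PAS transcription factor expressed in palate and jaw mesenchyme, measured 4.53, 4.28, 5.95 and 6.18 in distal arrays 1 to 4 and 8.21, 9.58, 8.74 and 10.16 in proximal arrays 1 to 4. All 4 distal arrays lay below all 4 proximal arrays, and Sim2 fell by 3.94 ± 0.41 (SE) distally (limma, adjusted p = 0.0405). Distal arrays 1, 2 and 3 lay below the level of 6.07 used to filter low values, so the size of this fall is less certain than its direction. A second probe set for Sim2, with a mean of 6.95 over the 8 arrays beside 7.20, differed by only -1.79. Barx1, a homeobox gene of molar tooth fields and posterior palate, measured 8.03, 8.60, 9.12 and 10.01 distally and 11.10, 11.49, 11.59 and 11.78 proximally. The ends did not overlap, with the distal arrays numbered 1 and 2 lowest, and Barx1 fell by 2.55 ± 0.27 (SE; limma, adjusted p = 0.0405). Mab21l1, a regulator of eye and craniofacial development, measured 7.93, 8.29, 9.11 and 9.37 distally and 10.04, 9.96, 10.62 and 10.30 proximally. It too showed no overlap and fell by 1.55 ± 0.17 (SE; limma, adjusted p = 0.0461).

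The genes that rose distally code for a secreted factor, a channel and a calcium-binding protein. Gdnf, a ligand that acts on neurons and neural crest cells through the receptor Ret, measured 6.24, 6.17, 7.26 and 7.14 in distal and 5.24, 5.14, 6.29 and 6.29 in proximal arrays. The distal arrays were higher within each array set, although distal arrays 1 and 2 lay just below proximal arrays 3 and 4, and the rise was 0.96 ± 0.08 (SE; limma, adjusted p = 0.0302). Proximal arrays 1 and 2 lay below the filter level of 6.07, so the size of this rise is also less certain than its direction. Aqp3, a water and glycerol channel of surface epithelia, measured 7.57, 7.67, 9.09 and 8.84 distally and 6.58, 6.25, 7.52 and 7.38 proximally. All distal arrays exceeded all proximal arrays, and the rise was 1.36 ± 0.12 (SE; limma, adjusted p = 0.0302). S100a4, a small calcium-binding protein of motile mesenchymal cells, measured 7.41, 7.25, 7.61 and 7.50 distally and 6.38, 6.14, 6.67 and 6.72 proximally. The ends did not overlap, the array sets gave nearly the same difference (1.07 and 0.86), and the rise was 0.97 ± 0.10 (SE; limma, adjusted p = 0.0405).

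**Figure D1:**
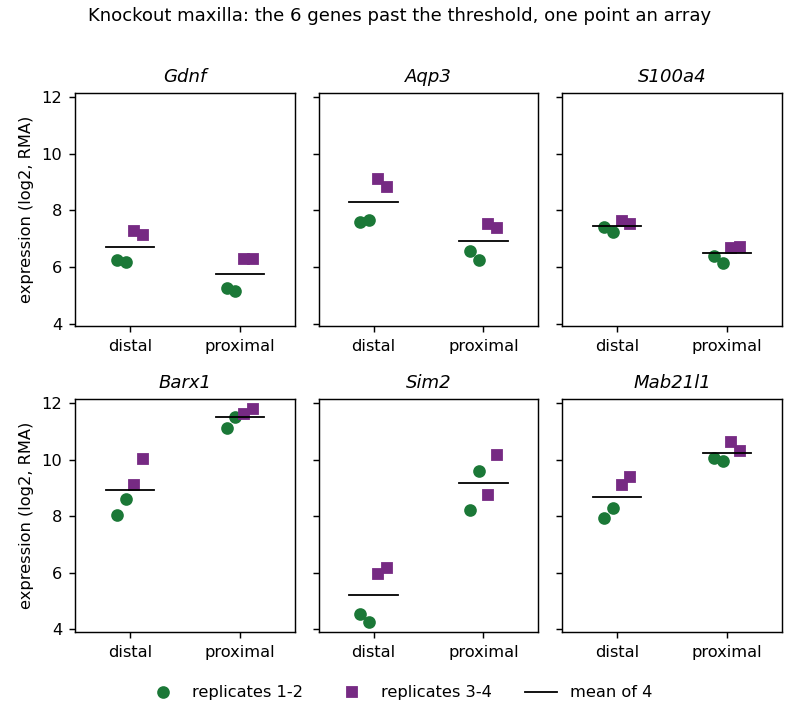
Log2 RMA expression of the 6 genes past the threshold in the 4 distal and 4 proximal arrays of knockout maxilla; circles are replicates 1-2, squares replicates 3-4 and the line is the mean of 4. Sim2, Barx1, Mab21l1, Aqp3 and S100a4 do not overlap between the ends, and Gdnf is separated within each array set, with a rise of 0.96.

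RefSeq promoter sequences (assembly GRCm38.p6, the 250 bases before the start of transcription) matched 4 of the 6 genes, and they are shown because these are the regions next to the genes whose level differed between the ends. Sim2 and Mab21l1 are named only. Capitals mark TATAAA and GGGCGG, searched on both strands, so that a GGGCGG on the other strand reads CCGCCC; overlapping matches were counted. The promoters are written 5′ to 3′ on the gene's strand, and lie at chr15:7809798-7810047 (+) for Gdnf, chr4:41098184-41098433 (-) for Aqp3, chr3:90603520-90603769 (+) for S100a4 and chr13:48662786-48663035 (+) for Barx1.
Gdnf: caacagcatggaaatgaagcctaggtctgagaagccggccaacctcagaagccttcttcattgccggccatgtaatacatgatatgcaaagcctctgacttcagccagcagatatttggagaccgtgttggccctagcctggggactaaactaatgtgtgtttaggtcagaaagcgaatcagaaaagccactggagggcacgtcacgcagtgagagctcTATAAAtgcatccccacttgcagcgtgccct
Aqp3: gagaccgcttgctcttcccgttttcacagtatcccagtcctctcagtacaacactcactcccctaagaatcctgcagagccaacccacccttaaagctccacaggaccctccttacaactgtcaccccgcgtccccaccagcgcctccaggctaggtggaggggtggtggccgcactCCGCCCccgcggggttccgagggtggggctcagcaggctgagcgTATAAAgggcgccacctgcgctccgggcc
S100a4: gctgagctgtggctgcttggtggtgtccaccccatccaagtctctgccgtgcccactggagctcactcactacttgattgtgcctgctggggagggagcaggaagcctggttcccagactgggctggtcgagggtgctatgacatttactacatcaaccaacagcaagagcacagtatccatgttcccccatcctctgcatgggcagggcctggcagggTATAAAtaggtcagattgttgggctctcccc
Barx1: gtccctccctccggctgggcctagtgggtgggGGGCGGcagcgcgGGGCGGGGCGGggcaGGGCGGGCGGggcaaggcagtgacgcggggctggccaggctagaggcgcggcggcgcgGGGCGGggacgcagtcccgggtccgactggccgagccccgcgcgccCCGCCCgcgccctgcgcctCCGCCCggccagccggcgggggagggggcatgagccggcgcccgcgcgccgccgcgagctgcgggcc

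The 3 genes that rose each held a TATAAA, 31 bases before the start in Gdnf, 29 in Aqp3 and 31 in S100a4, and Barx1 held none in this window. A further Gdnf start in the table held neither motif. GGGCGG occurred 8 times in Barx1, 1 time in Aqp3 and not in Gdnf or S100a4. Of the 32851 promoters in the table, 12.4% held TATAAA and 32.7% held GGGCGG on either strand. Guanine and cytosine made up 85.6% of the Barx1 window, 64.0% of Aqp3, 57.2% of S100a4 and 50.8% of Gdnf, beside a median of 52.4% over all promoters. These matches describe the letters of the reference and were not tested for function.

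The separation of the arrays was also counted within each array set. In 422 genes (3.05%) both distal arrays exceeded both proximal arrays within each array set, in 281 (2.03%) they lay below, and in 572 (4.13%) the sets separated opposite ways. All 4 distal arrays exceeded all 4 proximal arrays for 131 genes (0.947%) and lay below them for 74 (0.535%). Genes separated the same way in both sets, 703 (5.08%), were thus not much more frequent than those separated opposite ways. Of the 703, 76 differed by more than 1, with 44 higher and 32 lower distally. The end difference was also tested for a dependence on array set, and 0 of 13837 genes (0%) passed with limma, with 502 at an unadjusted p under 0.05. Gsc, a homeobox gene of jaw mesenchyme, and Tnmd, a tendon membrane protein, were among the genes with the smallest p in that test. Gsc had a difference of 0.84 in replicates 1-2 and -0.97 in replicates 3-4 and Tnmd -0.33 and 2.04 (limma, adjusted p = 0.273 for each).

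**Figure D2:**
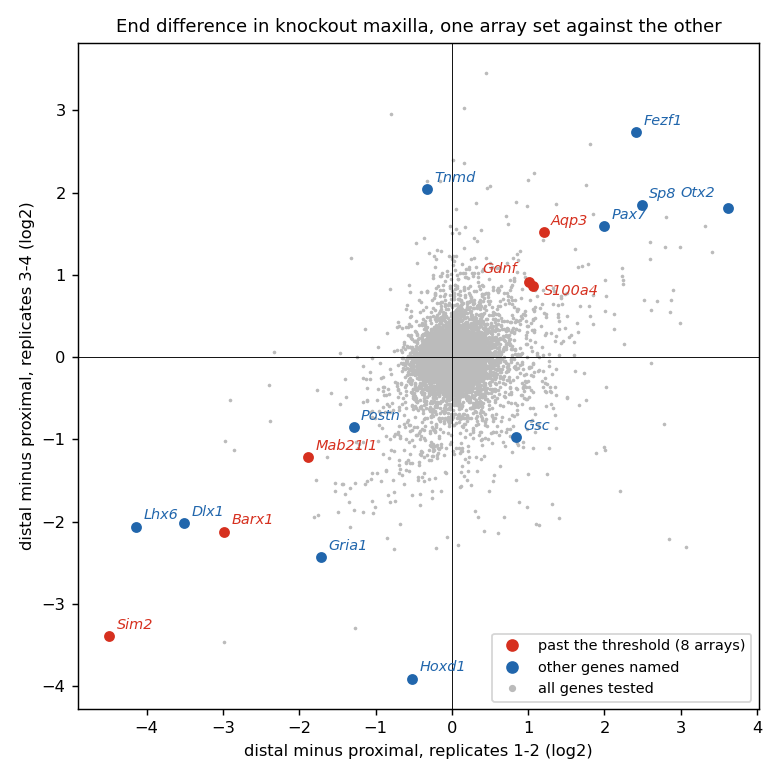
Distal minus proximal log2 difference of each of 13837 genes in replicates 3-4 against that in replicates 1-2 of knockout maxilla. The 6 genes past the threshold (red) have the same sign in both sets, as do Otx2, Fezf1, Sp8, Pax7, Dlx1, Lhx6, Gria1 and Postn, whereas Gsc and Tnmd change sign between the sets.

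The maxillary and frontonasal transcription factors divided between the ends. Of 18 members tested, 0 passed, 9 were above 0 and 9 below, and the median difference was 0.09. That median was -0.26 in replicates 1-2 and 0.34 in replicates 3-4. Over all genes, 49.4% were above 0 and the median was -0.0015. Within both array sets 4 members were separated higher and 5 lower, beside 3.05% and 2.03% of all genes. Dlx1, a homeobox gene of first-arch mesenchyme, measured 6.37, 5.98, 7.54 and 8.55 distally and 9.73, 9.63, 10.16 and 9.97 proximally. The ends did not overlap, and the difference of -2.76 ± 0.34 (SE) missed the threshold (limma, adjusted p = 0.0557). Dlx2, its neighbour in the genome, measured 8.42, 8.07, 9.34 and 9.65 against 10.62, 10.64, 10.39 and 10.16, again without overlap (-1.58 ± 0.31 SE, adjusted p = 0.271). Lhx6, a LIM-homeobox gene of oral mesenchyme, measured 6.02, 5.52, 7.28 and 8.62 distally and 9.81, 10.01, 10.54 and 9.48 proximally. Its difference of -3.10 ± 0.50 (SE, adjusted p = 0.219) was larger than that of Dlx1, and distal arrays 1 and 2 were the lowest of the 8. Lhx8, its close relative, measured 9.31, 6.66, 9.84 and 10.66 against 10.92, 10.99, 11.98 and 10.55, and distal array 4 overlapped the proximal arrays. Prrx1, a homeobox gene of limb and face mesenchyme, measured 11.69, 12.26, 12.41 and 12.65 against 12.93, 12.94, 13.46 and 12.91, with no overlap and a difference of -0.81 ± 0.17 (SE, adjusted p = 0.326).

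Other members of that list, and genes of the nasal field, were higher distally on most arrays without passing the threshold. Pax7, a paired-box gene of nasal mesenchyme that also marks muscle progenitors, measured 11.32, 11.00, 8.71 and 9.53 in distal and 10.42, 7.91, 7.08 and 7.97 in proximal arrays. Proximal array 1 lay above distal arrays 3 and 4, and the difference was 1.79 ± 0.51 (SE; limma, adjusted p = 0.482). Alx1, a homeobox gene of frontonasal mesenchyme, measured 12.32, 12.79, 12.97 and 12.72 against 12.14, 11.01, 11.35 and 10.66, a difference of 1.41 ± 0.31 (SE, adjusted p = 0.326) with no overlap. Tfap2b, a transcription factor of neural crest, differed by 1.02 ± 0.22 (SE, adjusted p = 0.327) and Eya2, a co-activator of cranial placodes, by 1.01 ± 0.20 (SE, adjusted p = 0.288), with no overlap for Eya2.

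Of the 11 olfactory and nasal markers and the 11 forebrain markers tested, 8 of each were above 0 and 0 passed, with medians of 0.15 and 0.32. Within both array sets, 2 olfactory and 3 forebrain markers were separated higher. Of all genes, 3.05% were so separated and 49.4% were above 0. Otx2, a homeobox gene of forebrain and sensory placodes, measured 9.58, 9.49, 8.76 and 7.88 distally and 7.69, 4.14, 6.76 and 6.27 proximally. The ends did not overlap, although distal array 4 and proximal array 1 lay close together, and the difference was 2.71 ± 0.74 (SE, adjusted p = 0.449). Fezf1, a zinc finger gene of olfactory epithelium and forebrain that stands in neither list, measured 9.21, 8.88, 9.37 and 9.19 against 7.95, 5.29, 6.74 and 6.35, a difference of 2.58 ± 0.49 (SE, adjusted p = 0.268). Its distal arrays were close together and its proximal arrays were not. Sp8, a zinc finger gene of nasal pit epithelium, measured 9.09, 9.04, 8.76 and 7.70 against 7.60, 5.56, 7.26 and 5.51 (2.17 ± 0.53 SE, adjusted p = 0.382). Fezf2 differed by 1.92 ± 0.37 (SE, adjusted p = 0.268), Olig2, a bHLH gene of neural progenitors, by 2.00 ± 0.48 (SE, adjusted p = 0.380) and Lhx2 by 1.70 ± 0.68 (SE, adjusted p = 0.824). The mean log2 level of the 11 olfactory markers was 8.60 to 9.37 in distal and 8.35 to 8.66 in proximal arrays, and that of the 11 forebrain markers 7.48 to 8.29 and 7.01 to 7.51. In such bulk tissue, fewer cells of a type and less RNA per cell cannot be told apart.

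**Figure D3:**
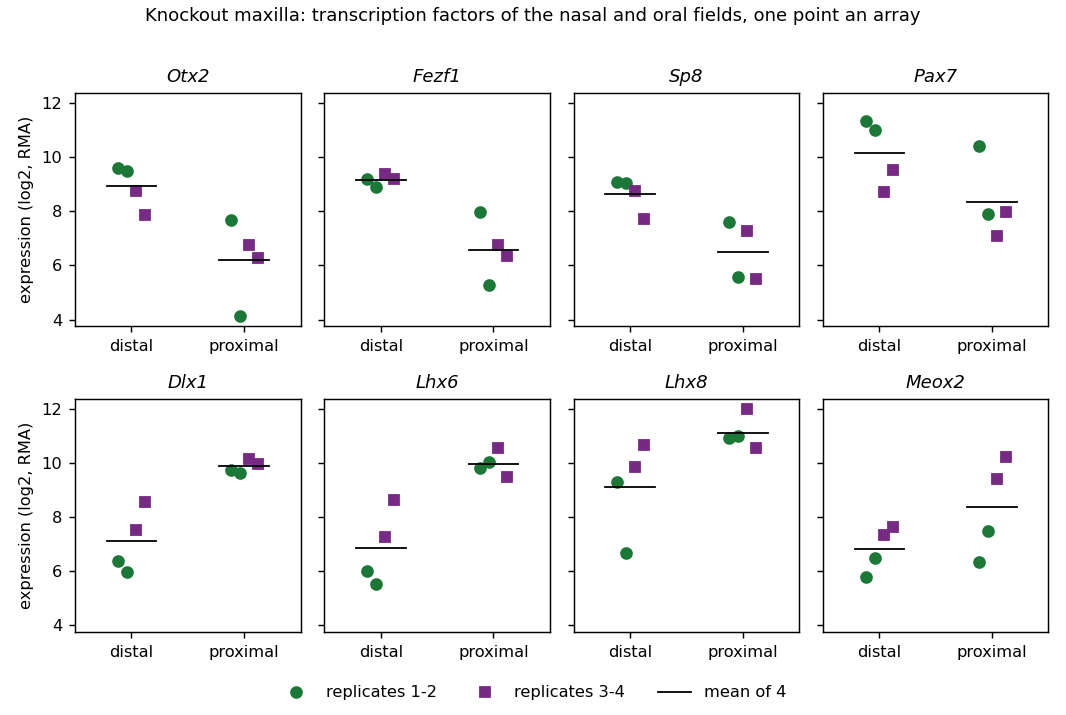
Log2 RMA expression of 8 transcription factors of the nasal and oral fields in distal and proximal arrays of knockout maxilla; circles are replicates 1-2, squares replicates 3-4 and the line is the mean of 4. Otx2, Fezf1 and Sp8 lie higher distally and Dlx1 and Lhx6 lower without overlap, while Pax7, Lhx8 and Meox2 overlap between the ends; none of the 8 passed the threshold.

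The palate genes held 2 of the 6 genes past the threshold, which 0.0434% of all genes passed. These lists were chosen with earlier results of these data known. Of 5 posterior palate genes, 1 passed, Barx1, with 4 below 0 and a median of -0.44. Meox2, a homeobox gene of the posterior palatal shelves, measured 5.80, 6.51, 7.33 and 7.63 distally and 6.34, 7.48, 9.41 and 10.20 proximally, so that the proximal arrays numbered 1 and 2 lay among the distal arrays (-1.54 ± 0.41 SE; limma, adjusted p = 0.436). Mn1, a regulator of posterior palate growth, differed by -0.44 ± 0.15 (SE, adjusted p = 0.653). Of 6 anterior palate genes 0 passed, with a median of 0.22. Shox2, which marks anterior palatal mesenchyme, differed by -1.04 ± 0.32 (SE, adjusted p = 0.551), whereas Bmp4 differed by 0.87 ± 0.30 (SE, adjusted p = 0.653) and Msx1, a target of BMP signalling, by 0.65 ± 0.36 (SE, adjusted p = 0.998). The members of this list thus stood on opposite sides of 0. Among 11 other palatal shelf genes, 1 passed, Sim2, and 8 were below 0, with a median of -0.19. Osr2, a zinc finger gene of the shelves, measured 6.36, 6.77, 9.58 and 9.88 against 7.79, 8.29, 10.48 and 10.11, lower distally within each set (-1.02 ± 0.23 SE, adjusted p = 0.348). Pax9, needed for palate and teeth, measured 9.36, 9.07, 9.90 and 9.70 against 8.89, 8.29, 9.26 and 9.10, higher distally within each set (0.62 ± 0.15 SE, adjusted p = 0.361). Of 16 tooth germ genes, 1 passed, which was again Barx1, with 10 above and 6 below 0. Foxl2, a forkhead gene of facial mesenchyme and eyelid, differed by -1.19 ± 0.25 (SE, adjusted p = 0.318) without overlap.

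The signalling lists held no gene past the threshold. Of 29 WNT pathway genes tested, 22 were above 0, with a median of 0.22 that was -0.01 in replicates 1-2 and 0.48 in replicates 3-4. Wif1, a secreted WNT inhibitor, measured 9.66, 10.72, 10.60 and 10.74 in distal and 9.07, 8.09, 9.99 and 8.71 in proximal arrays, higher within each set (1.46 ± 0.36 SE; limma, adjusted p = 0.382). Rspo1, a secreted WNT enhancer, measured 10.64, 10.42, 10.09 and 9.97 against 9.59, 9.96, 9.39 and 8.79, without overlap (0.85 ± 0.15 SE, adjusted p = 0.255). Sfrp2, another secreted inhibitor, measured 10.06, 10.89, 12.42 and 12.57 against 11.20, 11.23, 13.45 and 13.41, lower distally within each set and with higher values in replicates 3-4 than in 1-2 (-0.84 ± 0.17 SE, adjusted p = 0.288). Of the 24 BMP pathway genes, 16 were above 0 (median 0.14), and of the 11 Hedgehog pathway genes 7 (median 0.13). The BMP median was -0.03 in replicates 1-2 and 0.30 in replicates 3-4, and the Hedgehog median was 0.01 and 0.12. Among the 16 TGF-beta ligands, receptors and Smads, the pathway of the deleted receptor, 7 were above and 9 below 0, with a median of -0.0036. Tgfb2, a ligand, measured 11.30, 11.34, 11.80 and 11.47 distally and 10.33, 10.38, 11.40 and 11.34 proximally, a difference of 0.62 ± 0.16 (SE, adjusted p = 0.418) that was 0.97 in replicates 1-2 and 0.27 in replicates 3-4. Of 15 TGF-beta target genes, 11 were below 0, with a median of -0.10.

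Postn, a matrix protein of periosteum and fibrous tissue that stands in the TGF-beta target list, had the smallest p of that list. It measured 10.23, 9.89, 11.88 and 12.22 distally and 11.47, 11.21, 13.11 and 12.70 proximally, lower within each set (-1.07 ± 0.16 SE; limma, adjusted p = 0.170). Kera, a cornea and tendon proteoglycan, differed by -1.40 ± 0.25 (SE, adjusted p = 0.248), and Cdh19, a cadherin of Schwann cell precursors, by -1.50 ± 0.29 (SE, adjusted p = 0.271), each separated within both sets. In their lists, 8 of 10 tendon genes were below 0 and 2 above (median -0.24), with Tnmd at 0.86. Among 10 glia, migrating neural crest and melanoblast markers, 7 were below 0 and 3 above (median -0.25), with Kit at 0.26. Of 27 extracellular matrix genes 18 were below 0 (median -0.12), of 16 cartilage genes 12 (median -0.14) and of 19 cell cycle genes 18 (median -0.08, which was -0.26 in replicates 1-2 and 0.03 in replicates 3-4). The cartilage median was -0.0062 in replicates 1-2 and -0.28 in replicates 3-4. The mean log2 level of the cartilage genes was 9.37 in proximal array 4, against 7.58 to 7.85 in the other proximal and 7.50 to 8.38 in the distal arrays. Of these lists 0 genes passed.

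The imprinted growth genes were lower distally in all 11 members tested, with a median of -0.25, and 7 of the 11 were separated lower within both array sets, beside 2.03% of all genes. Imprinted genes are expressed from 1 parental allele and many of them govern fetal growth. Of the 11, 0 passed the threshold (limma) and 5 had an unadjusted p under 0.05. Peg3, a zinc finger gene, measured 12.78, 13.07, 12.90 and 12.84 in distal and 13.27, 13.29, 13.22 and 13.31 in proximal arrays, a small difference without overlap (-0.38 ± 0.09 SE; limma, adjusted p = 0.380). Dlk1, a membrane ligand related to Notch ligands, measured 10.28, 10.80, 10.59 and 10.68 against 11.33, 11.47, 11.22 and 12.79. Proximal array 4 stood above the rest, and the difference was -1.12 ± 0.32 (SE, adjusted p = 0.482). Peg10 differed by -0.86 ± 0.25 (SE, adjusted p = 0.482) without overlap, at levels near the filter. Magel2, an imprinted gene outside the list, measured 6.19, 6.50, 6.50 and 6.42 distally and 7.98, 8.27, 7.29 and 8.62 proximally, without overlap (-1.64 ± 0.27 SE, adjusted p = 0.219).

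Markers of other cell types held 0 genes past the threshold in any of their lists. Of 20 epithelium markers tested, 5 were separated higher within both sets, beside 3.05% of all genes. Of the 20, 18 were above 0, beside 49.4% of all genes, with a median of 0.41, and 0 passed. The mean log2 level of the list was 9.89 to 10.53 in distal and 9.76 to 10.02 in proximal arrays, and the lowest distal array lay among the proximal ones. Epcam, an adhesion molecule of all epithelia, measured 12.07, 11.89, 12.25 and 11.92 against 11.33, 10.90, 11.54 and 11.75, a difference of 0.66 ± 0.15 (SE; limma, adjusted p = 0.356). A second probe set for Epcam, with a mean of 8.12 over the 8 arrays beside 11.71, differed by only 0.11. Cldn7 differed by 0.87 ± 0.23, Cldn6 by 0.71 ± 0.18 and Esrp1, an epithelial splicing factor, by 0.52 ± 0.14 (SE, adjusted p = 0.436, 0.421 and 0.426), each without overlap. The part of epithelium in the rise of Aqp3 and in the nasal genes was not tested.

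Skeletal muscle markers were below 0 in 23 of 24 members tested, with a median of -1.22. Of the 24, 0 were separated lower within both sets, beside 2.03% of all genes. The member above 0 was Pax7. The mean log2 level of the list was 6.18, 7.47, 5.85 and 7.16 in distal arrays 1 to 4 and 6.97, 8.24, 5.95 and 9.44 in proximal arrays 1 to 4, highest in proximal array 4. Actc1, a muscle actin, measured 6.56, 10.27, 6.07 and 10.22 distally and 9.37, 11.09, 7.14 and 13.04 proximally, and Myl4, a muscle myosin light chain, 4.64, 7.66, 4.85 and 6.82 against 6.85, 8.96, 5.30 and 10.22. The spread among arrays of 1 end was thus larger than the difference between ends (-1.88 ± 1.49 SE for Actc1, limma, adjusted p = 0.998). Myf5, a myoblast determination factor, differed by -1.52 ± 0.73 (SE, adjusted p = 0.985). Of 17 neuron markers 10 were above 0, with a median of 0.88 in replicates 1-2 and -0.60 in replicates 3-4, and all 7 erythroid markers were above 0 with a median of 0.11. The part of these cells in the differences was not tested.

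**Figure D4:**
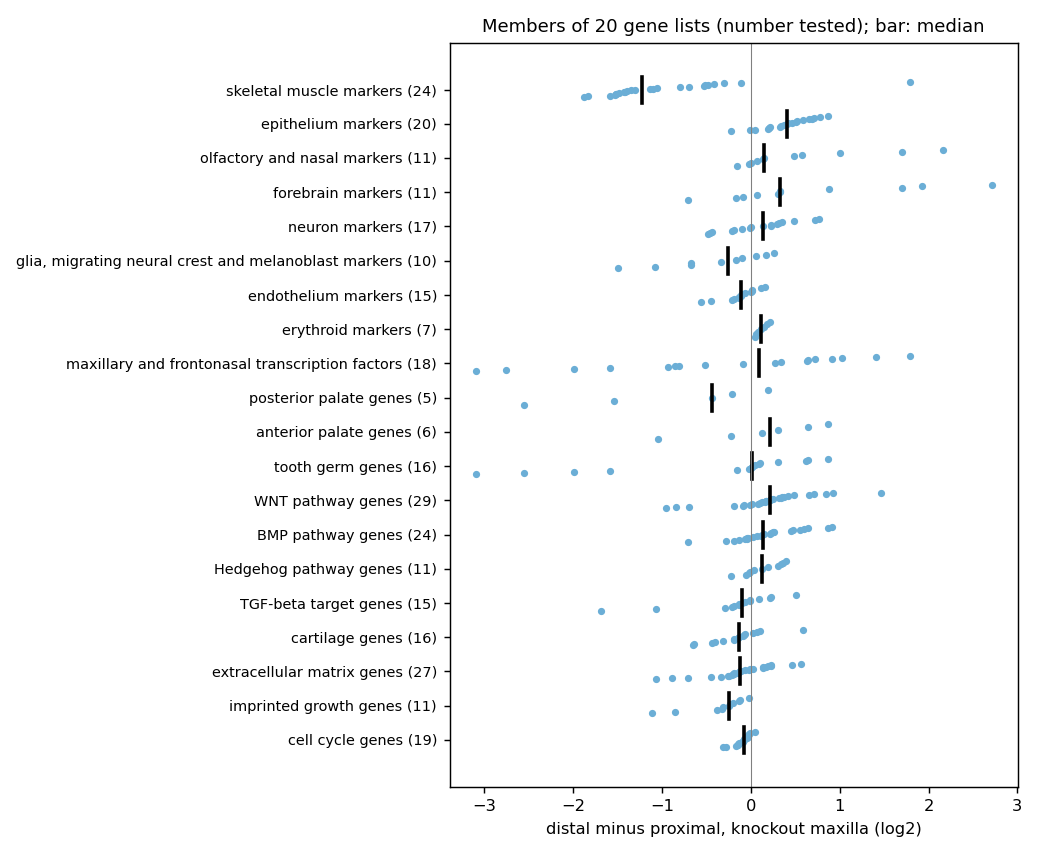
Distal minus proximal log2 difference in knockout maxilla of each tested member of 20 gene lists (points; the number tested is in brackets), with the list median as a bar. Skeletal muscle markers centre at -1.22, epithelium markers at 0.41 and imprinted growth genes at -0.25, and the maxillary and frontonasal transcription factors spread to both sides.

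The spread of all 16 knockout arrays gave 65 calls for the same contrast (0.470%), 46 higher (0.332%) and 19 lower (0.137%), among them all 6 genes above. The olfactory and nasal markers held 2 of the higher calls, and the maxillary and frontonasal transcription factors 3 of the lower ones. Those were Dlx1, Dlx2 and Lhx6, with adjusted p of 0.00163, 0.0222 and 0.0178 in that fit (limma), and on the higher side Fezf1 had an adjusted p of 0.0178, Fezf2 0.0178, Sp8 0.0446, Epcam 0.0393 and Pax9 0.0495. Asb4, a placental and vascular gene, and Gria1, a glutamate receptor subunit, were also called lower there, with adjusted p of 0.00122 and 0.00163. In the 8 arrays alone Asb4 measured 9.33, 9.75, 9.93 and 10.32 distally and 10.65, 11.11, 12.29 and 12.08 proximally, and Gria1 5.81, 5.33, 5.04 and 5.72 against 6.98, 7.60, 7.93 and 7.70. Neither overlapped between the ends, and both just missed the threshold (limma, adjusted p = 0.0517 for each). The wider fit assumes that the mandible arrays vary like those of the maxilla.

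The knockout mandible, dissected in the same way, shows whether the end difference was the same in the lower jaw. There 251 genes (1.81%) passed, 109 higher (0.788%) and 142 lower (1.03%) distally, and 54 genes (0.390%) had an end difference that differed between the jaws (limma, 16 arrays). With the replicate number as a block, 3 genes passed, and leaving out 1 array gave from 11 genes, without mandible proximal array 2, to 140, without maxilla proximal array 4. Of the 54, 48 had opposite signs in the jaws, whereas 8627 of all 13837 genes had the same sign in both. The test picks genes by the gap between the jaws and so favours opposite signs, and the 48 are no separate result. In the mandible 37 of the 54 were called and in the maxilla 11 with the spread of the 16 arrays, 2 of them in both. The difference was larger in the maxilla for 14.

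Genes with the maxilla difference more positive than that of the mandible included members of the Dlx family. Dlx4 differed by 0.40 between the ends of the maxilla and by -2.09 between those of the mandible, a gap of 2.48 ± 0.28 (SE; limma, adjusted p = 0.00583), and Dlx3 by 0.61 and -1.67 (gap 2.28 ± 0.35 SE, adjusted p = 0.0202). Dlx5 and Dlx6, the lower jaw selector genes, differed by 0.58 and 0.85 in the maxilla, and their gaps of 1.63 and 1.30 did not pass (adjusted p = 0.0718 and 0.212). Bmper, a secreted BMP modulator, differed by -0.28 in the maxilla and -2.68 in the mandible (gap 2.40 ± 0.30 SE, adjusted p = 0.00637). Rspo1 had 0.85 against -0.89 (gap 1.74 ± 0.24 SE, adjusted p = 0.0110) and Fezf2 had 1.92 against -0.35 (gap 2.28 ± 0.43 SE, adjusted p = 0.0388). Svopl, a predicted transporter, had 1.90 against -1.70 and Dmrta1, a DM-domain gene, 1.46 against -0.82 (adjusted p = 0.0110 and 0.0181). The means of Svopl lay below the filter level of 6.07 in all 4 groups (3.79 to 5.72), those of Dmrta1 and Fezf2 in all but the distal maxilla, and that of Dlx4 in the proximal maxilla (5.90), so these gaps rest on signal near background.

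On the other side stood Asb4, with -1.70 in the maxilla and 0.57 in the mandible (gap -2.27 ± 0.24 SE; limma, adjusted p = 0.00471), and Gpr50, an orphan receptor, with -1.47 and 1.91 (gap -3.38 ± 0.46 SE, adjusted p = 0.0109). Both maxilla means of Gpr50, 4.25 and 5.71, lay below the filter level. A second probe set for Gpr50, with a mean of 5.49 over the 8 maxilla arrays beside 4.98, differed by only -0.15 between the maxilla ends. Alx1 was higher distally in both jaws, by 1.41 in the maxilla and 4.77 in the mandible, where its proximal mean was 5.92 ± 0.51 (SD, n = 4) against 11.29 ± 0.63 (SD, n = 4) in the proximal maxilla (gap -3.36 ± 0.55 SE, adjusted p = 0.0262). Postn had -1.07 against 0.65 (gap -1.72 ± 0.31 SE, adjusted p = 0.0348) and Gria1 -2.08 against -0.31 (gap -1.77 ± 0.32 SE, adjusted p = 0.0330). The distal maxilla mean of Gria1, 5.48, lay below the filter level. The imprinted genes Magel2 (-1.64 against 0.57, adjusted p = 0.0388) and Peg3 (-0.38 against 0.27, adjusted p = 0.0330) were also on this side, and the imprinted list had a median of 0.26 in the mandible. The 6 genes called in the maxilla did not pass this test: the gap was 0.79 for Gdnf, 0.78 for Aqp3, 1.10 for S100a4, -1.60 for Barx1, -2.09 for Sim2 and -0.48 for Mab21l1, with adjusted p from 0.0505 to 0.989. Barx1, Sim2 and Mab21l1 had mandible differences of -0.96, -1.85 and -1.07, which did not pass there (adjusted p = 0.0725, 0.0524 and 0.0579).

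Control littermates supplied 2 arrays for each end of the maxilla. Of 13837 genes 0 passed between the ends in controls (0%, limma; 198 at an unadjusted p under 0.05), and for 0 did the end difference differ between knockout and control (0%; 176 at an unadjusted p under 0.05). With arrays of the same number subtracted, control numbers 1 and 2 ran in opposite directions for the genes of the nasal field: the distal minus proximal difference was 6.14 and -1.76 for Otx2, 4.76 and -1.02 for Fezf1 and 5.69 and -1.29 for Sp8. The numbers are not known to pair the arrays. Otx2 measured 10.76 and 7.84 in control distal arrays 1 and 2 and 4.62 and 9.60 in control proximal arrays 1 and 2. Distal array 2 thus lay below proximal array 2 but above proximal array 1. Of the 76 genes separated by over 1 in the knockout, 67 (88.2%) had the same sign in control number 1 and 19 (25.0%) in control number 2, beside 54.2% and 44.8% of all genes. These shares rest on the same subtraction by number. Whether the end labels of the control arrays numbered 2 are right was not tested, and the 0 calls in controls and between genotypes rest on those labels. Without both control arrays numbered 2, a choice made after the data were seen, 10 genes passed between the ends in controls and 2 differed between the genotypes, with single control arrays assumed to vary like the knockouts.

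Oral genes that were lower distally in the knockout changed sign between the control numbers too. With arrays of the same number subtracted, the differences were -1.18 and 0.53 for Dlx1, -1.54 and 0.55 for Lhx6 and -2.03 and 0.55 for Lhx8. Sim2 measured 9.97 and 6.93 in control distal arrays 1 and 2 and 10.10 and 7.46 in control proximal arrays 1 and 2, so that it differed more between the numbers than between the ends. Barx1 measured 11.26 and 9.85 distally and 11.84 and 10.31 proximally, with the same order. The knockout differences were -3.94 for Sim2 and -2.55 for Barx1, and their gaps to the control of -3.61 and -2.03 did not pass (limma, adjusted p = 1 for each). Hoxd1, a Hox gene chosen after its values were seen, measured 4.00 and 9.30 distally and 10.47 and 4.29 proximally in controls, and 4.21, 4.23, 4.10 and 7.00 against 3.77, 5.71, 9.34 and 9.57 in knockouts. High values of Hoxd1 thus lay in knockout proximal arrays 3 and 4, control proximal array 1 and control distal array 2.

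**Figure D5:**
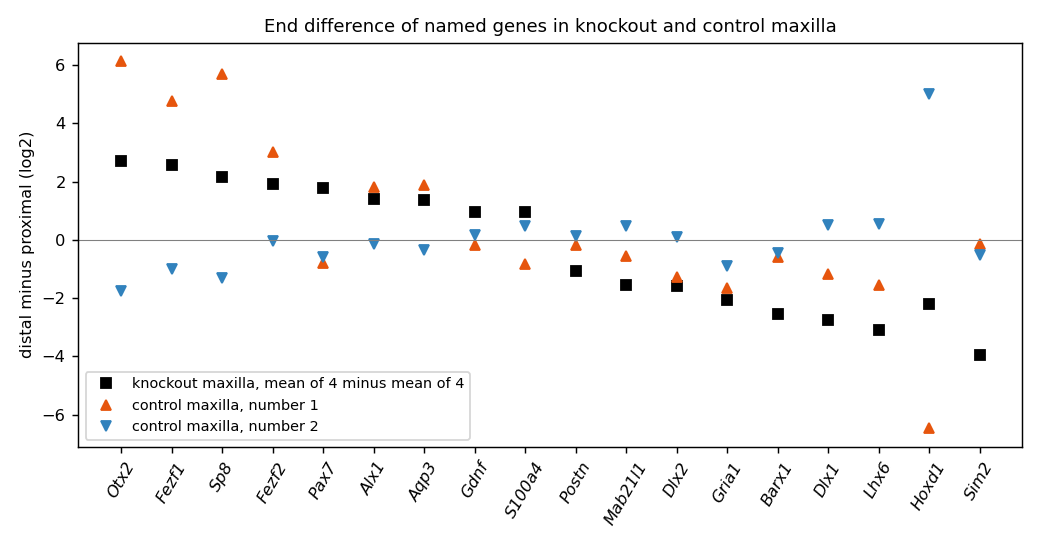
Distal minus proximal log2 difference of 18 named genes in knockout maxilla (squares, mean of 4 minus mean of 4) and in control maxilla for the arrays numbered 1 and 2 (triangles, single arrays of the same number subtracted, which are not known to be pairs). Control number 1 has a difference of 6.14 for Otx2 and -6.48 for Hoxd1, and control number 2 has -1.76 and 5.01.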

How the data were processed

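Total RNA of dissected jaw ends was hybridised to Affymetrix Mouse430_2 arrays. The table deposited by the authors gives log2 expression for each probe set, for which the submitters' processing notes name RMA; its version is not given in the sources used here. Precision is limited by the number of arrays. Of 45101 probe sets, 64 control features stayed out of the tests, 34945 carry 1 gene symbol, 932 several and 9160 none, from a platform annotation that can be old; 34741 matched a RefSeq gene (assembly GRCm38.p6, names only). Each gene was read from its brightest probe set over 24 arrays, and 13837 of 18193 genes lay above the 40th percentile (6.07) on at least 2 arrays.

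Comparisons used limma (version 3.58.1, with lmFit and eBayes, 2-sided; R 4.3.3) with Benjamini-Hochberg adjustment over all genes and a threshold of 0.05. The maxilla fit held 8 arrays and the array set as a block (5 residual degrees of freedom); the controls were fitted with 12 maxilla arrays and the mandible with 16 knockout arrays. The script was tested on simulated data. The arrays, the 36 gene lists, the markers and the tests were chosen with earlier results of these data known, and lists are described by counts and medians only. A list's level is the mean log2 value of its members.

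Named were the genes past the threshold and separated within both sets, up to 4 members of each list by smallest p, and the 5 largest interactions each way; predicted genes and clones were counted, not named. Gria1, Lhx8, Tfap2b, Fezf1, Olig2, Hoxd1, Actc1, Myl4, Dmrta1, Twist1, Pdgfra and Col3a1 fall outside that rule and were chosen after their values were seen. Same-numbered arrays of the 2 ends deviated together over all arrays (correlation 0.43 to 0.72), as the array sets do, but not within replicates 1-2 (-0.14) or 3-4 (0.07), so that the numbers were not taken to pair the samples. By Xist and Kdm5d, distal array 1 was male and proximal array 1 female, and the arrays numbered 2 the other way round, so a block with these numbers crossed was fitted too; the arrays numbered 3 were male and those numbered 4 female. Alternatives covered blocks, covariates, normalization, filters, probe sets and left-out arrays.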

Additional observations from a re-analysis of the deposited data

Results flagged for a closer look

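In 54 genes the end difference differed between the knockout maxilla and the knockout mandible by the interaction test (limma). Among those named, the gap, maxilla minus mandible on the log2 scale, was 3.60 for Svopl, 2.48 for Dlx4, 2.40 for Bmper, 2.28 for Dlx3, 2.28 for Dmrta1, 2.28 for Fezf2 and 1.74 for Rspo1. It was -3.38 for Gpr50, -3.36 for Alx1, -2.27 for Asb4, -2.20 for Magel2, -1.77 for Gria1, -1.72 for Postn and -0.65 for Peg3. For Gpr50 a second probe set differed by only -0.15 between the maxilla ends.

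In 6 of 128 groups of 4 arrays the most extreme array stood further from the others than Dixon's critical value allows, which is about the 1 in 20 that chance flags. Proximal array 3 was high for Prrx1 (13.46) and proximal array 4 for Dlk1 (12.79). Distal array 4 was low for Olig2 (5.30) and Dmrta1 (5.82) and high for Hoxd1 (7.00), and distal array 1 was low for Wif1 (9.66).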

How the results depend on the processing

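The 6 genes between the ends of the knockout maxilla became 0 genes without the array set block, with the replicate block (729 at an unadjusted p under 0.05), with the replicate block of crossed numbers, with a sex covariate, with RNA quality in place of array set, in replicates 1-2 only, in replicates 3-4 only and with 12 maxilla arrays, and 1 gene with all 24 arrays. They became 11 with median-centred arrays, 12 with no filter and 65 with 16 knockout arrays, and each of these counts includes the 6. The mean over all probe sets gave 4, of which 3 are among the 6, and the gene called with 24 arrays is not among them. Leaving out 1 array gave 0 to 15, with 10 without proximal array 1 (2 of the 6), 15 without distal array 4 (all 6), 2 without proximal array 3 (1 of the 6) and 0 without each of the others. Across 24 settings the difference ran from 0.90 to 1.52 for Aqp3, 0.91 to 1.01 for Gdnf, 0.86 to 1.07 for S100a4, -4.49 to -2.86 for Sim2, -2.98 to -2.12 for Barx1 and -1.89 to -1.22 for Mab21l1, and each was called in 7 to 9 of them. Without the control arrays numbered 2, controls gave 10 genes and end by genotype 2; leave-one-out gave 0 to 1 for the latter, the 1 gene without control proximal array 2. End by jaw gave 3 of 54 genes with the replicate block and 11 to 140 with 1 array left out, 140 without maxilla proximal array 4, 91 without maxilla distal 4, 27 without maxilla proximal 2, 24 without maxilla proximal 3 and 13 without maxilla distal 3, and, in the mandible, 13 without distal 1 and without proximal 1, 16 without distal 2, 11 without proximal 2, 22 without distal 3 and 19 without proximal 4; the replicate block changed no other count. The crossed and 12-array fits and the control leave-out were chosen after the data were seen; the causes were not tested. Numbers of arrays, and signal near background for Sim2 and Gdnf among others, limit these values.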
